A study of Mus musculus with 13 samples.

Results

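The regions described here are 261 Gli3 peaks that share at least 1 bp with an Olig2 or an Nkx6.1 peak and no base with any Nkx2.2 peak. They were selected on the overlap of called peaks in the 4 deposited lists, with no use of coverage, and made up 13.8% of the 1888 Gli3 peaks (95% Wilson interval 12.3 to 15.5%). Their number is therefore a description. Of the other Gli3 peaks, 425 met an Nkx2.2 peak and 1202 met no peak of the 3 ventral factors.

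Gli3 is a zinc finger transcription factor of the Hedgehog pathway that is processed into a repressor when Sonic hedgehog is absent. In the developing spinal cord, Sonic hedgehog from the floor plate and notochord limits this repressor ventrally and switches on factors that divide progenitors into domains. Olig2, a basic helix-loop-helix factor, is needed for motor neuron and oligodendrocyte progenitors. Nkx6.1, a homeodomain factor, spans several ventral domains including that of Olig2, and Nkx2.2, another homeodomain factor, marks the ventral domain next to that of Olig2.

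The factors were mapped by ChIP-seq, the sequencing of chromatin immunoprecipitated with a factor, in neural progenitors grown from mouse embryonic stem (ES) cells. All cultures spent 2 days in suspension and 3 days in 500 nM retinoic acid. Gli3 was precipitated with the anti-FLAG antibody M2 from progenitors called dorsal in the labels, grown without SAG, from a V6.5 (C57BL/6 x 129/sv) ES derivative carrying a 3xFLAG-Avi tag at the start codon of Gli3. Olig2, Nkx6.1 and Nkx2.2 were precipitated with antibodies against the factors themselves, cocktails for both Nkx factors, from progenitors called ventral, which also received 160 to 800 nM SAG, a Smoothened agonist that activates the Hedgehog pathway. The first libraries of Olig2 and Nkx6.1 came from the YFP3.1 line, and the first of Nkx2.2 and the second of each ventral factor came from a derivative of YFP3.1 with FLAG-tagged Gli1 at Rosa26, on a background mixed from C57BL6/J and 129 Sv with Swiss Webster. A shared peak is therefore an overlap, by at least 1 bp, of peaks called in 2 different cultures. Factor, agonist and cell line cannot be told apart in any comparison with Gli3.

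The 13 libraries were 7 ChIP and 6 input libraries, with 1 ChIP library for Gli3 and 2 for each ventral factor. Each factor had 1 list of peaks, each 300 bp wide within 2 bp, with no score. Sequencing depth is unknown, and no expression was measured, so the labelled cell type could not be checked against expressed markers. With 1 list per factor no difference below has a replicate test. Intervals cover counting error only, and neighbouring peaks are not independent. Which genes lie near the peaks was not analysed here, and coordinates are mm9, counted from 1.

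Olig2 was the usual partner. Of the 261 Gli3 peaks, 200 met Olig2 alone (76.6%), 43 met both Olig2 and Nkx6.1 (16.5%) and 18 met Nkx6.1 alone (6.90%). This gave 243 Gli3 peaks with Olig2 and 61 with Nkx6.1, and the lists they were drawn from hold 11747 Olig2 and 4094 Nkx6.1 peaks. Seen from the ventral lists, the partners were few: 240 of 10432 Olig2 peaks without Nkx2.2 (2.30%) and 61 of 3210 Nkx6.1 peaks without Nkx2.2 (1.90%). A further 4 Olig2 partners touched an Nkx2.2 peak that did not reach the Gli3 peak, and they were kept out of the comparisons with other Olig2 peaks. Results over all 243 Gli3 peaks with Olig2 include them.

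A larger share of the Olig2 peaks with Gli3 carried Nkx6.1 as well. An Nkx6.1 peak lay on 43 of the 240 Olig2 partners (17.9%, 13.6 to 23.3%), against 999 of 10192 Olig2 peaks with neither Gli3 nor Nkx2.2 (9.80%, 9.24 to 10.4%), and on 9.99% of both sets together. Likewise 44 of 61 Nkx6.1 partners met Olig2 (72.1%, 59.8 to 81.8%), against 984 of 3149 Nkx6.1 peaks with neither Gli3 nor Nkx2.2 (31.2%, 29.7 to 32.9%), and 32.0% of both sets together. Both shares of the partners lay below those at sites that also had Nkx2.2: of the 139 Olig2 peaks with Gli3 and Nkx2.2, 46.8% met Nkx6.1.

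The edges of the selection were as follows. The fewest bases shared with a partner were 1 bp at chr8:129021992-129022291, 11 bp at chr11:87236256-87236555 and 15 bp at chr11:87952857-87953156. On the far side of the overlap limit, the peaks chr14:64204733-64205032, chr2:104656268-104656567 and chr4:148265347-148265646 missed the nearest Olig2 or Nkx6.1 peak by 1, 9 and 13 bp, and 27 Gli3 peaks lay within 100 bp of such a peak. The selected peaks closest to Nkx2.2 had 314 bp between centres at chr13:52016005-52016304, 330 bp at chr8:37218830-37219129 and 352 bp at chr4:117046151-117046450. The least overlap with Nkx2.2 that led to exclusion was 4 bp at chr12:91467603-91467902, 19 bp at chr14:25928464-25928763 and 49 bp at chr6:97616696-97616995.

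Gli3 centres lay close to those of their partners. The median distance was 66 bp to Olig2 (51 to 85 bp, 95% interval of the median, n = 243) and 82 bp to Nkx6.1 (48 to 106 bp, n = 61). Peaks of 300 bp that overlap cannot lie further than 299 bp apart, so the rule bounds these values. Within that bound, 105 of the 243 centres (43.2%) lay within 50 bp of Olig2, and 34 lay more than 200 bp away. For Gli3 peaks at Nkx2.2 the median distance to Nkx2.2 was 72 bp (61 to 81 bp, n = 425), an interval that overlaps both others. Partners fell on either side, with Olig2 at the higher coordinate for 115 Gli3 peaks, at the lower for 126, and on the same base for 2.

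**Figure D1:**
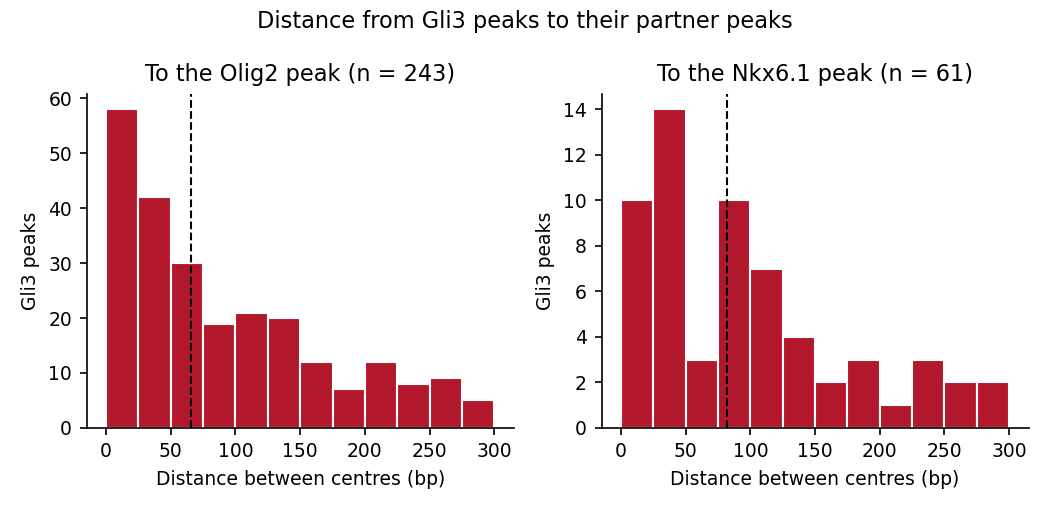
Number of Gli3 peaks by distance (bp) between their centre and that of the Olig2 peak (left, n = 243) or Nkx6.1 peak (right, n = 61) they share bases with, in steps of 25 bp. Dashed lines are the medians, 66 and 82 bp; the counts are highest within 50 bp.

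At the 43 sites with all of Gli3, Olig2 and Nkx6.1, the 2 ventral factors were the closest pair at 23. Their centres were a median of 44 bp apart (22 to 63 bp), against 75 bp between Gli3 and Olig2 and 76 bp between Gli3 and Nkx6.1 at the same sites. Gli3 and Olig2 were the closest pair at 11 of them, and Gli3 and Nkx6.1 at 9. The distances between the ventral factors come from cultures of 1 kind, those to Gli3 from different ones.

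Peaks with Olig2 or Nkx6.1 were concentrated in the early lines of the Gli3 list. The first 944 of its 1888 lines held 176 of the 261 (18.6% of those lines, 16.3 to 21.3%), and the last 944 held 85 (9.00%, 7.34 to 11.0%). Over 10 equal parts of the list the share was 24.3, 19.6, 18.5, 15.3, 15.3, 14.3, 13.2, 8.99, 4.79 and 3.72%. Sites with Olig2 alone made up 14.5% of the first 944 lines and 6.67% of the last 944, and sites with both partners 3.18% and 1.38%. Sites with Nkx6.1 alone numbered 9 in each.

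Among the other Gli3 peaks, the order depended on the class. Those at Nkx2.2 together with Olig2 or Nkx6.1 also thinned out along the list, at 12.1% of the first 944 lines and 3.60% of the last 944, whereas peaks at Nkx2.2 alone made up 12.7% and 16.6%. What the Gli3 order follows is not stated. The lists of the ventral factors ran from high to low coverage: in block 1 of their coverage tables the median fell to 6.31 in the last 10% of Olig2 lines, against 52.3 in the first 10%. No coverage table of Gli3 was used here, so whether the Gli3 order follows signal was not tested.

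**Figure D2:**
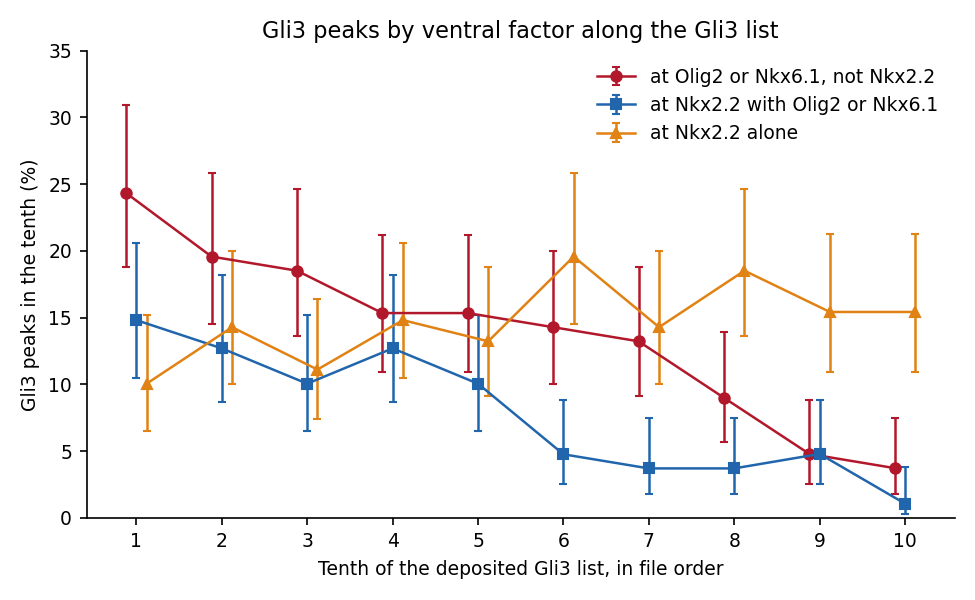
Percentage of Gli3 peaks in each of 10 equal parts of the deposited list, in file order, that met Olig2 or Nkx6.1 without Nkx2.2 (circles), Nkx2.2 with Olig2 or Nkx6.1 (squares) or Nkx2.2 alone (triangles); bars are 95% Wilson intervals. The circles fall to 3.72% at the end of the list, from 24.3% at its start.

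The first line of the Gli3 list, chosen after its values were seen, was such a site: chr7:146714658-146714957 met Olig2 35 bp and Nkx6.1 22 bp from its centre, and its nearest Nkx2.2 centre was 1901 bp away. Later in the list the partners lay further away. Among the 87 earliest of the 261 peaks the median distance to Olig2 was 48 bp (26 to 63 bp), among the next 87 it was 69 bp (45 to 104 bp), and among the last 87 it was 94 bp (66 to 139 bp). Across the 243 peaks with Olig2, Spearman's rho between list line and distance was 0.23, while that between line and Olig2 coverage was -0.11 in block 1 and -0.14 in block 2. These are weak relations across regions of shared libraries.

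The Olig2 and Nkx6.1 coverage tables hold 3 blocks of values, which name no library, around the centre of every listed peak. Coverage below is the mean within 250 bp of the centre, in the authors' units. Blocks 1 and 2 held sharp peaks: coverage was over 2 times that of the flanks at 97.1% and 98.3% of the Olig2 partners, against 98.8% and 97.1% of the Olig2 peaks with neither Gli3 nor Nkx2.2. In block 3 these shares were 47.1% and 39.1%. Beside them, the shares over both sets together were 98.8, 97.1 and 39.3% in blocks 1, 2 and 3. For the Nkx6.1 partners the shares were 96.7, 93.4 and 47.5%, beside 99.5, 95.8 and 36.9% of all Nkx6.1 peaks without Nkx2.2. Block 3 was the same signal in both tables, since 303 pairs of overlapping Olig2 and Nkx6.1 peaks had a median ratio of 1.00 and a median correlation of 0.996 along the profile. The only library that the labels give to both factors is an input, that of their second replicate. Which library block 3 holds is not stated. Olig2 or Nkx6.1 coverage below means values around the peaks of that factor, and in block 3 they are not read as its binding.

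Among Olig2 peaks without Nkx2.2, Olig2 coverage was higher at those with Gli3. In block 1 the 240 partners had a median of 14.9, with quartiles of 9.35 and 26.7, against 10.8 for the other Olig2 peaks without Nkx2.2. In block 2 it was 16.4, with quartiles of 9.94 and 25.6, against 7.71. In block 3 it was 1.06 against 0.672. On the log2(coverage + 1) scale the difference of medians was 0.43 in block 1, 1.00 in block 2 and 0.30 in block 3. The SD among the partners was 1.11, 1.04 and 0.37, so in each block the shift was smaller than their own spread. High coverage was not particular to sites with Gli3. Olig2 peaks with Nkx2.2 but no Gli3 had medians of 16.1, 15.2 and 0.896 in blocks 1, 2 and 3 (n = 1172). Those with both Nkx2.2 and Gli3 had 18.3, 23.8 and 1.21 (n = 139).

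The range of the partners was wide. In block 2, 72 of the 240 partners ranked above the 90th percentile of Olig2 peaks without Nkx2.2 and 2 ranked below the 10th, whereas in block 1 the counts were 45 and 16. Values ran between 4.59 and 319 in block 1 and between 2.18 and 169 in block 2. The block 1 difference was 0.25 within 100 bp of the centre and 0.27 without peaks that had Nkx6.1. With coverage taken relative to the flank it was 0.16, and each of these was over 1.5 times smaller. In block 3 the difference was 0.14 relative to the flank and 0.58 with a pseudocount of 0.1.

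**Figure D3:**
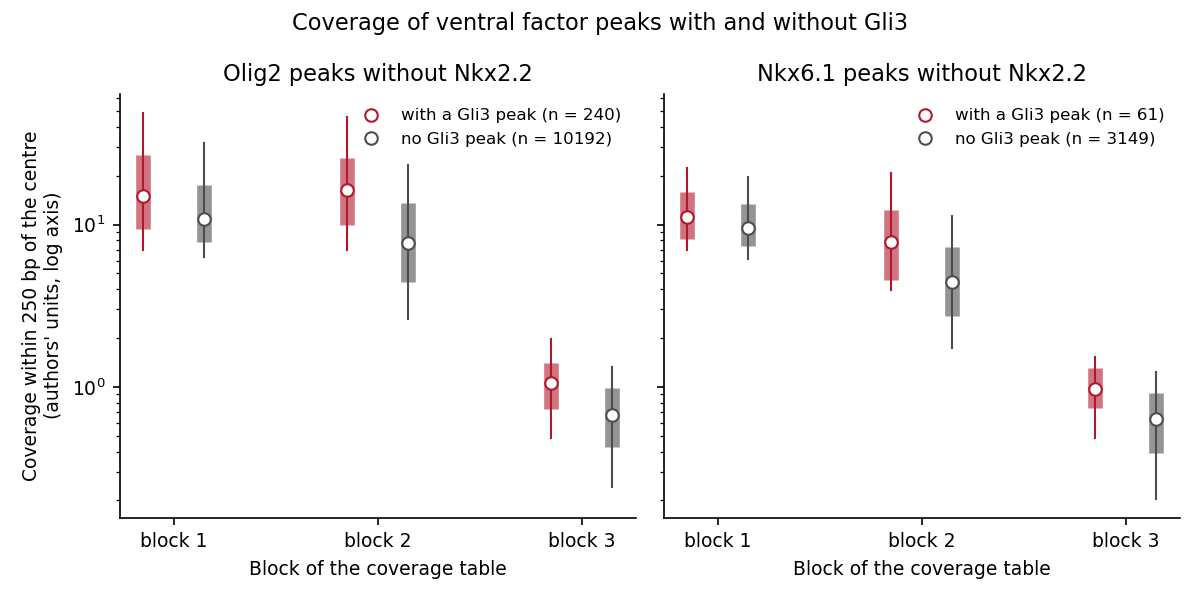
Coverage within 250 bp of the centre (authors' units, log axis) in each block, for Olig2 peaks (left) and Nkx6.1 peaks (right) without Nkx2.2, with a Gli3 peak (red) or without (grey). Circles are medians, thick bars the quartiles, and thin lines reach the 10th and 90th percentiles; the block 2 medians are 16.4 with Gli3 and 7.71 without for Olig2, and 7.78 and 4.45 for Nkx6.1.

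The 2 sharp blocks did not move alike. Block 2 exceeded block 1 at 121 of the 240 Olig2 partners (50.4%), against 19.8% of the Olig2 peaks with neither Gli3 nor Nkx2.2. The median log2 ratio of block 2 over block 1 was 0.00 at the partners (-0.11 to 0.10) and -0.57 at the other peaks (-0.59 to -0.55). Block 2 was higher at 11 of the 61 Nkx6.1 partners (10.4 to 29.5%), against 216 of the 3149 other Nkx6.1 peaks (6.03 to 7.80%). Olig2 peaks with Gli3 and Nkx2.2 went further in the same direction, at 64.0%. Those with Nkx2.2 but no Gli3 stood at 37.0% (n = 1172), also above the 19.8%. The labels give the 2 Olig2 ChIP libraries different cell lines, but which block is which library is not stated, so a part of the line was not tested.

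The share of Olig2 peaks that carried Gli3 was larger at high than at low coverage in each block. Ranked by block 2, Gli3 met 0.192% of the lowest 10% of Olig2 peaks without Nkx2.2 and 6.90% of the highest 10%. Ranked by block 1 the shares were 1.53% and 4.31%, and ranked by block 3 they were 0.383% and 6.52%. Among Nkx6.1 peaks without Nkx2.2 the block 2 shares were 0.312% and 5.61%, and in block 3 none of the 321 lowest peaks carried Gli3 (up to 1.18% by the Wilson interval) against 5.61% of the highest. The shares in the highest 10% were thus alike for blocks 2 and 3.

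**Figure D4:**
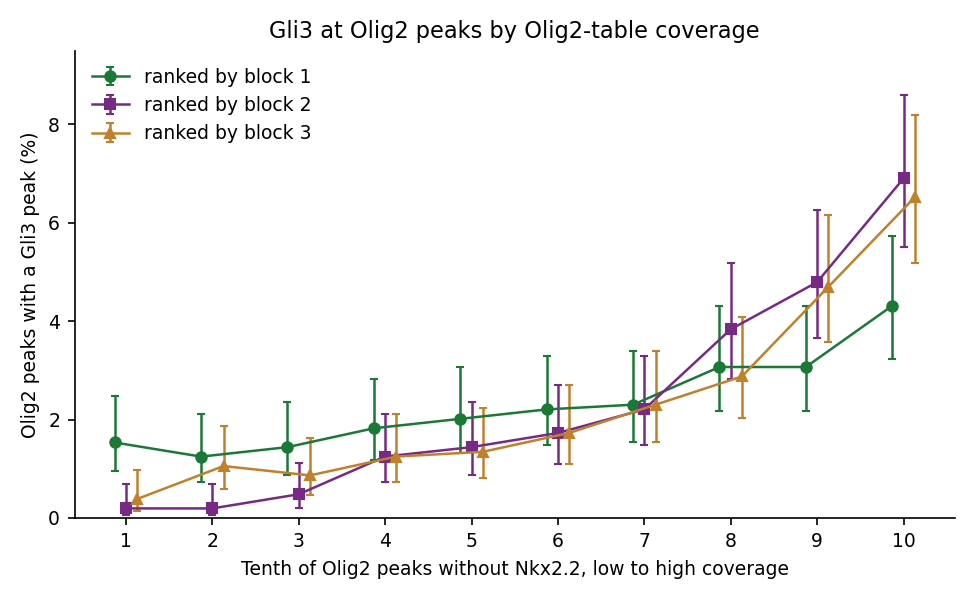
Percentage of Olig2 peaks without Nkx2.2 that met a Gli3 peak, in 10 equal parts ranked from low to high coverage within 250 bp in block 1 (circles), block 2 (squares) or block 3 (triangles); bars are 95% Wilson intervals. In the highest part the shares are 4.31, 6.90 and 6.52%.

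Because block 3 moved with Gli3, the Olig2 comparison was repeated within 4 equal groups of Olig2 peaks ranked by block 3, an alternative chosen after seeing the data. From the lowest to the highest group the block 2 difference was 0.93, 1.07, 1.07 and 0.71, with 19, 32, 57 and 132 partners. The block 1 difference was 0.43, 0.47, 0.55 and 0.19. An Nkx6.1 peak lay on 15.8, 18.8, 19.3 and 17.4% of the partners, against 7.76, 9.63, 11.0 and 10.9% of the other Olig2 peaks. The differences in block 2 and in Nkx6.1 had the same direction in all 4 groups, of which the lowest is thin. In blocks 1 and 2 they were smallest in the highest group, which held 132 partners. Block 3 can still differ within a group, so its part in these differences was not tested.

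Olig2 partners that also had Nkx6.1 had more coverage in blocks 1 and 2 than those without. Their medians were 23.7 in block 1, 25.9 in block 2 and 1.05 in block 3 (n = 43), against 15.8, 14.3 and 0.728 at 999 Olig2 peaks with Nkx6.1 but neither Gli3 nor Nkx2.2. The 197 partners without Nkx6.1 had 12.8, 14.8 and 1.06, against 10.5, 7.26 and 0.672 at 9193 such peaks without Gli3. By distance to Gli3, the block 2 median was 17.1 with centres within 50 bp (n = 103), 17.0 at 51 to 150 bp (n = 87) and 13.4 further apart (n = 46). The block 1 medians of these groups were 15.8, 14.8 and 11.5, and those of block 3 were 1.06, 1.03 and 1.21.

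Nkx6.1 partners were higher than other Nkx6.1 peaks without Nkx2.2 as well. Their medians were 11.1, 7.78 and 0.971 in blocks 1, 2 and 3 (n = 61), against 9.59, 4.45 and 0.635 at the 3149 other Nkx6.1 peaks. The log2 differences were 0.20, 0.69 and 0.27, beside SDs among the partners of 0.69, 0.89 and 0.32. Without peaks that had Olig2 they were 0.11 in block 1 and 0.41 in block 2. In block 1 the difference was 0.12 within 100 bp of the centre and 0.04 with coverage taken relative to the flank. The block 1 difference turned to -0.34 and -0.12 within the lowest and highest of 4 groups ranked by block 3, with 2 and 34 partners, so its direction depended on that grouping. At the 43 sites with both partners, Spearman's rho between Olig2 and Nkx6.1 coverage was 0.40 in block 1 and 0.50 in block 2, across regions whose coverage windows overlap. Nkx6.1 peaks with Nkx2.2 but no Gli3 had medians of 13.5, 8.27 and 0.766 (n = 803), above the Nkx6.1 partners in blocks 1 and 2.

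Olig2 partners were also broader. Coverage between 200 and 400 bp from the centre was a median of 14.6% of that within 50 bp in block 1 (12.2 to 17.0%), against 8.50% at the other Olig2 peaks without Nkx2.2 (8.35 to 8.64%). In block 2 it was 16.0% against 12.7%. Olig2 peaks with both Nkx2.2 and Gli3 had 14.9% in block 1 and 15.2% in block 2 (n = 139), so this breadth was not particular to the partners. Partners with a Gli3 centre more than 50 bp away had 16.7% in block 1 (n = 133), and those with Gli3 nearer had 12.4% (n = 103). The intervals of those last values overlap.

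**Figure D5:**
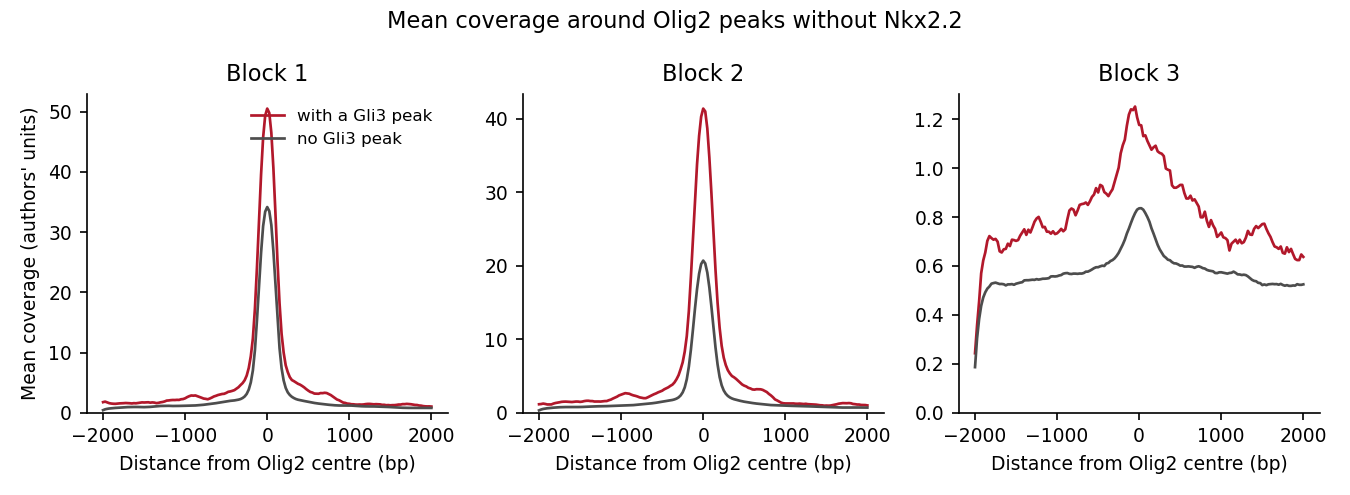
Mean coverage (authors' units) by distance from the Olig2 centre (bp) in blocks 1, 2 and 3, for Olig2 peaks without Nkx2.2 that met Gli3 (red, n = 240) or did not (grey, n = 10192); each block has its own scale. At the centre the means with and without Gli3 are 50.5 and 34.2 in block 1, 41.4 and 20.7 in block 2, and 1.18 and 0.836 in block 3.

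Where Gli3 lay off centre, Olig2 coverage leaned towards it. Among 113 Gli3 peaks at least 75 bp from their Olig2 centre, block 2 coverage at the Gli3 centre exceeded that at the mirrored position on the other side at 80 and was lower at 32. With coverage here taken within about 25 bp of each position, not 250 bp, the medians were 14.2 on the Gli3 side and 8.42 on the other. In block 1 the counts were 70 and 43, and in block 3 they were 58 and 52. For Nkx6.1, with 34 peaks, block 1 was higher on the Gli3 side at 23 and block 2 at 17.

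The single sites with the most Olig2 coverage show the range of the selection. At chr6:127972295-127972594, Gli3 and Olig2 centres were 10 bp apart, with Olig2 coverage of 211 in block 1, 169 in block 2 and 2.69 in block 3, and no Nkx6.1 peak. At chr2:31465361-31465660, both factors were present and Olig2 coverage was 319, 99.9 and 1.06. This site also had the highest Nkx6.1 coverage of all partners, at 77.6, 36.0 and 1.06, and both partner centres lay within 45 bp of Gli3.

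Other strong sites paired high Olig2 with moderate Nkx6.1. At chr17:16294964-16295263, Olig2 coverage was 242 and 130 in blocks 1 and 2, with 0.467 in block 3, while Nkx6.1 coverage was 10.3 and 8.78. At chr8:127801228-127801527, Olig2 had 128 and 101 and Nkx6.1 had 9.86 and 10.2, with block 3 at 2.52. At chr16:29720164-29720463, line 4 of the Gli3 list, Olig2 had 184 and 137 and Nkx6.1 had 10.8 and 11.8, and an Nkx2.2 centre lay 438 bp away. Block 3 thus differed several-fold among sites that were all high in blocks 1 and 2.

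The remaining strong sites with Olig2 alone were chr13:81768521-81768820 (159 and 80.0 in blocks 1 and 2), chr16:42190217-42190516 (114 and 101), chr4:76015982-76016281 (134 and 85.4), chr1:167896684-167896983 (99.6 and 97.9) and chr3:103223852-103224151 (97.0 and 83.6). All 10 sites ranked above the 98th percentile of Olig2 peaks without Nkx2.2 in both blocks. They were chosen by coverage in these blocks, so their high ranks are no separate result. At the other end, chr8:113006372-113006671 had Olig2 coverage of 6.45 and 2.18, with the centres 249 bp apart. At chr4:120558510-120558809 it was 6.46 and 2.63, at chr11:88635789-88636088 5.60 and 3.50, and at chr13:60248585-60248884 4.59 and 5.10. The fifth of these weak sites, chr17:34162729-34163028 with 6.27 and 3.63, stood on line 9 of the Gli3 list, so an early line could go with a weak Olig2 peak.

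Of the 10 sites with the highest Nkx6.1 coverage, 8 also had Olig2, near the 72.1% of all Nkx6.1 partners that did. After the chromosome 2 site above came chr13:31623651-31623950, with Nkx6.1 at 32.7 and 24.3 and Olig2 at 45.4 and 19.9 in blocks 1 and 2. At chr2:74590987-74591286 Nkx6.1 reached 41.9 and 18.3 and Olig2 19.0 and 17.0, and this Gli3 peak stood near the end of its list, on line 1837. At chr5:132121600-132121899 Nkx6.1 had 25.9 and 21.2 and Olig2 59.3 and 46.1, with an Nkx2.2 centre 480 bp away. At chr11:62994322-62994621 Nkx6.1 had 23.4 and 15.1 and Olig2 87.1 and 74.1.

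The other 2 of these 10 sites had Nkx6.1 without Olig2. At chr10:60087933-60088232 the Gli3 and Nkx6.1 centres were 1 bp apart, with Nkx6.1 at 28.2 and 21.9. At chr8:12165669-12165968 they were 106 bp apart, with 17.8 and 22.5. The remaining sites of the 10 had Olig2 as well: chr5:75408935-75409234 (20.2 and 23.0), chr11:11841188-11841487 (22.2 and 15.8) and chr14:23602562-23602861 (14.7 and 18.8). At the chromosome 11 site the Gli3 and Nkx6.1 peaks shared 10 bp, with centres 290 bp apart.

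Coverage in the Nkx2.2 table could be read at a few sites without an Nkx2.2 peak. Most of the 261 Gli3 peaks were far from Nkx2.2, with a median of 72911 bp to the nearest centre and 13 within 1 kb (4.98%). For 19 of them, between 314 and 1715 bp from an Nkx2.2 centre, the Nkx2.2 table reached the Gli3 position. Here and in the next paragraph, coverage is the mean within about 75 bp of a position, not within 250 bp. At the Gli3 position the median coverage in that table was 9.88 in block 1, against 0.664 at the mirrored position and 41.2 at the Nkx2.2 peak itself. It was above the mirrored value at 14 of 19. In block 2 it was 3.34 against 1.11, and above at 17 of 19. Block 3 was also higher, at 0.978 against 0.699, and above at 12 of 19. The highest block 1 value was 55.8, at chr16:29720164-29720463. These 19 were read because they lie near Nkx2.2 and say nothing of the others.

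Nkx6.1 and Olig2 were read in the same way at sites without their peaks. At 15 Gli3 peaks with Olig2 alone that lay 328 to 1787 bp from an Nkx6.1 centre, coverage in the Nkx6.1 table had a median of 4.77 in block 1, against 1.42 at the mirrored position, and was higher at 14 of 15. In block 2 it was 4.12 against 1.53, and higher at 11 of 15, and in block 3 it was 1.01 against 0.392, and higher at 10 of 15. At 3 peaks with Nkx6.1 alone, coverage in the Olig2 table was above the mirrored value in all 3 blocks. Block 3, whose library is not named, was thus also higher at these positions, and its part in the other values was not tested.

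Olig2 peaks with Gli3 had close neighbours in a larger share of cases. Another, separate Olig2 peak lay within 5 kb of 90 of the 240 partners (37.5%, 31.6 to 43.8%), against 1833 of the 10192 other Olig2 peaks without Nkx2.2 (17.3 to 18.7%). An Nkx2.2 peak lay within 5 kb of 12.5% against 6.46%, and a separate Nkx6.1 peak of 13.8% against 6.73%. Seen from Gli3, a further Olig2 peak lay within 5 kb of 34.1% of the 261 peaks, against 20.2% of Gli3 peaks at Nkx2.2 and 15.4% of those at no ventral factor. A further Gli3 peak lay within 5 kb of 11.5%, against 9.88% and 14.1%. In no 100-kb window were there 3 of the 261 peaks, and 18 windows held 2.

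Chromosome 8 carried an outsized part of the Gli3 list. It held 14.2% of all Gli3 peaks, but 5.52% of the Olig2 and 5.54% of the Nkx6.1 peaks. The sites described here followed the Gli3 list, with 34 of 261 on chromosome 8 (13.0%, 9.47 to 17.7%). Of the 240 Olig2 partners, 29 lay there (12.1%), against 5.42% of the other Olig2 peaks. Among Gli3 peaks, those with Olig2 or Nkx6.1 but not Nkx2.2 made up 12.7% on chromosome 8 and 14.0% elsewhere. Partners on chromosome 8 had Olig2 medians of 14.8 and 19.8 in blocks 1 and 2, and those elsewhere 15.0 and 15.9, against 10.8 and 7.66 for the other Olig2 peaks elsewhere, so the coverage differences were also present without that chromosome. The 261 peaks lay on every autosome, with 2 on the X and none among the 12 Gli3 peaks of the Y.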

How the data were processed

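Chromatin from 13 samples had been sequenced by the authors; titles gave the factor and whether a sample was ChIP or input. Bowtie2 2.2.4, HOMER and the mm9 build appear in the submitters' processing notes. Their settings, thresholds and any pooling of replicates are not given in the sources used here. Peak lists were deposited by the authors as positions only, another kind of value, together with coverage tables. Coverage values are a score whose scaling the authors do not state, given per the file headers in steps of 25 bp up to 2000 bp on each side, in 3 unnamed blocks. Depth is unknown. Table lines were matched to list lines, which was checked on shifted profiles of neighbouring peaks (median r 0.996 to 1.000).

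Overlap was at least 1 shared base. Mean coverage was taken over 250 bp on each side of the centre, the outermost 250 bp on each side being the flank, and compared as log2(coverage + 1). Coverage read at Gli3 centres and mirrored positions used narrower windows, given with those values. Breadth ratios had 0.1 added to both terms. Shares have 95% Wilson intervals, and medians exact order-statistic intervals. Python 3.11.15, numpy 2.4.6, pandas 2.3.3 and scipy 1.17.1 were used. Overlaps, distances between centres and the difference of median coverage were tested on simulated data, and the other calculations were not. The members and lists were chosen with earlier results of these data known. Named regions were the 10 highest and 5 lowest by Olig2 coverage, the 10 highest by Nkx6.1 coverage, the 5 with the highest sum of both, and the 3 at each edge of the selection; any other region is marked in the text as picked with its values known. Alternatives were other overlap and exclusion rules, windows, pseudocounts, flank scaling, chromosomes left out and groups by block 3. No mm9 genome or annotation was used here, so motifs, gene assignment and sequences are left out.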

Additional observations from a re-analysis of the deposited data

How the results depend on the processing

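Of 62 values recomputed under other settings, 54 stayed within the 95% interval of the reported value, or for counts within 1.5 times of it, 6 fell outside and 2 reversed. For coverage differences the interval was that of the partner median alone, with the median of the other peaks held fixed. These intervals are wide: 9 of the 54 were over 1.5 times larger or smaller than the reported value, all of them Olig2 block 1 or Nkx6.1 block 1 or 2 differences. The number of Gli3 peaks selected was 189 to 257 in place of 261, and the share with both partners 12.7 to 16.7%. For Olig2, the block 1 difference of 0.43 was 0.16 with coverage taken relative to the flank. The block 3 difference of 0.30 was 0.58 with a pseudocount of 0.1 and 0.14 relative to the flank. The block 2 difference of 1.00 was 0.71 in the highest of 4 groups by block 3. For Nkx6.1, the block 3 difference of 0.27 was 0.54 with a pseudocount of 0.1, and the block 1 difference of 0.20 was -0.34, 0.53 and -0.12 in the lowest, second and highest groups by block 3, of 2, 7 and 34 partners. In the third group the Nkx6.1 differences were 0.32 in block 1 and 0.34 in block 2, with 18 partners. The smaller pseudocount weighs low values more by construction; the cause of the other changes was not tested. The groups by block 3, the alternatives for list order and those for the side of Gli3 were chosen after seeing the data. Motif and gene alternatives were not run, for want of an mm9 genome here. No paired analysis was possible because each factor had 1 peak list and the blocks name no replicate. Unknown depth limits how far low coverage can be read.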
